A study of Mus musculus with 32 samples.

Results

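The 10 genes described here take fatty acids into muscle, oxidise them in mitochondria or hold them as triglyceride in lipid droplets: Cd36, Fabp3, Lpl, Angptl4, Acot2, Ucp3, Cpt1b, Plin2, Plin4 and Plin5. The genes were listed by name, and all 10 were found among the 54532 genes of the deposited count table. All 10 also passed the filter on low counts, which left 17121 genes for testing. Acot2 and Plin4 were chosen by their measured levels, which were lower in old than in young muscle. Their values in old against young muscle are therefore given as a description, with no test. The other genes were also listed with earlier results of these data known. Their p-values and the counts of genes called are thus not independent of that choice.

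Muscle takes up fatty acids that lipoprotein lipase, the product of Lpl, frees from circulating triglyceride at the capillary wall, and ANGPTL4 inhibits that enzyme. CD36 carries fatty acids across the cell membrane, FABP3 binds them in the cytosol, and CPT1B commits their CoA esters to entry into mitochondria. Perilipins coat the lipid droplets from which fatty acids are released again, and many of these genes are targets of the fatty acid receptors of the PPAR family, which are active in fasting.

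RNA was sequenced from tibialis anterior, a fast muscle of the shin, of C57BL/6J mice, in 32 libraries that formed 8 groups of 4. The groups were old mice given BI01 at day 7 and day 35 after injury, old mice given vehicle, uninjured and at day 7 and day 35, and young mice given vehicle, uninjured and at day 7 and day 35. The injury was made with barium chloride (BaCl in the labels), which destroys fibres and lets muscle stem cells rebuild them. BI01 is called a senolytic by the series, a compound meant to clear senescent cells, and its title names the p53–MDM2 interaction. No genotype beyond the strain, and no age beyond young and old, is given in the labels. The design has no uninjured and no young group with BI01. The uninjured libraries carry the name PBS and belong to the 35-day set. For day 7 against uninjured muscle the injury and the collection set thus cannot be told apart. The same holds for time after injury and collection set in day 35 against day 7. The libraries are named here by group and by their number in the table. The labels do not state that libraries came from separate animals, so p-values measure the spread between these samples, which may be technical.

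The libraries held 14129350 to 30439358 counts. The tissue label was checked with 9 fast fibre markers such as Acta1 and Myh4, which summed to 223451 to 231303 CPM in old uninjured muscle and 242379 to 308095 CPM in young uninjured muscle. CPM are counts per 1e+06 counts of a library, scaled with TMM factors, which correct for differences in library composition. These factors ran from 1.51 to 1.87 at day 7 in old vehicle muscle and from 0.775 to 0.825 in old uninjured muscle. Scaling by library size alone shifted all genes together: their median log2 fold change at day 7 was then 1.15 in old muscle, against 0.14 with TMM, and 1.05 in young muscle, against 0.17 with TMM. In that scaling 10770 genes were called higher and 1760 lower at day 7 in old vehicle muscle, against 5885 higher and 5110 lower with TMM, so changes are given relative to TMM scaling. Of the 10 genes, library size alone called 3 lower and 3 higher at day 7 in old and 4 lower and 2 higher in young muscle. Fewer cells of a type and less RNA per cell cannot be told apart in such bulk samples. Old vehicle library 7 at day 7 stood apart from its group, with fast fibre markers at 11578 CPM, against 58598 to 72467 CPM in the other 3 libraries, and results that rest on it are given with and without it. Between 2 groups, the 95% interval of a typical (median) gene's log2 fold change reached 0.58 to 0.61 to either side.

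Of the 10 genes, 7 have a promoter window in the RefSeq table for GRCm38.p6, the build that mm10 also names, and Cpt1b, Angptl4 and Lpl have none there. The 4 windows below are the 250 bases before the annotated start of the genes whose libraries did not overlap between old and young uninjured muscle, Angptl4 excepted. They are at chr12:83987611-83987860 on the plus strand for Acot2, chr7:100472741-100472990 on the plus strand for Ucp3, chr17:56109783-56110032 on the minus strand for Plin4 and chr17:56117549-56117798 on the minus strand for Plin5, which has another start downstream. They are printed 5′ to 3′ along the gene, and capitals mark AGGTCA, the core letters bound by nuclear receptors, searched on both strands.
Acot2: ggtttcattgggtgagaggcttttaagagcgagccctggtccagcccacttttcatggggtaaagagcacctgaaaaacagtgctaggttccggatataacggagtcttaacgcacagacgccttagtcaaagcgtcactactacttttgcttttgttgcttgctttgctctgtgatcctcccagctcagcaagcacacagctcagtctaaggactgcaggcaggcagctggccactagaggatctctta
Ucp3: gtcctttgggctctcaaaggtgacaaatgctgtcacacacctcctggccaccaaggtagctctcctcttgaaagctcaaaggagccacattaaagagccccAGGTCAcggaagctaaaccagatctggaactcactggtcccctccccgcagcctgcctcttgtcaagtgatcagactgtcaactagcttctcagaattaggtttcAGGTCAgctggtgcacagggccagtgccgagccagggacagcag
Plin4: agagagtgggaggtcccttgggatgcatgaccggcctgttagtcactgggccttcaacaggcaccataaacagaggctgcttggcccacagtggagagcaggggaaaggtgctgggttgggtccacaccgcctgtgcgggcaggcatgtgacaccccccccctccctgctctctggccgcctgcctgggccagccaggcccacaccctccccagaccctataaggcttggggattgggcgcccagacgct
Plin5: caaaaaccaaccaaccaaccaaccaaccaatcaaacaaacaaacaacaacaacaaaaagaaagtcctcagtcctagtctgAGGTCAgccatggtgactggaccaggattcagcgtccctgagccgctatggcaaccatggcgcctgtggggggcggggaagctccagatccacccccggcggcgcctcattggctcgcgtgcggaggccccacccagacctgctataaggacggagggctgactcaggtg
AGGTCA was present in 4 of the 7 genes with a window, and in 14% of 32851 windows of the same length. Ucp3 held it 2 times, 149 and 44 bases before the start, and Plin5 held it once, 170 bases before the start. Plin2 and Cd36 held it once each on the strand opposite to the gene. The direct repeat of AGGTCA with any 1 base between the copies, the form bound by PPAR, and the forkhead letters GTAAACA were in none of the 7 genes' windows, and in 0.0335% and 3.17% of all windows. These matches describe letters and show no binding.

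The genes lie at chromosome 5, 17781690 to 17888801 (Cd36, ENSMUSG00000002944), chromosome 4, 130308595 to 130315463 (Fabp3, ENSMUSG00000028773), chromosome 8, 68880491 to 68907448 (Lpl, ENSMUSG00000015568), and chromosome 17, 33773750 to 33781575 (Angptl4, ENSMUSG00000002289). Acot2 (ENSMUSG00000021226) lies at chromosome 12, 83987861 to 83993873, Ucp3 (ENSMUSG00000032942) at chromosome 7, 100472990 to 100486432, and Cpt1b (ENSMUSG00000078937) at chromosome 15, 89416405 to 89425863. Plin2 (ENSMUSG00000028494) lies at chromosome 4, 86648386 to 86670060, while Plin4 (ENSMUSG00000002831) at 56100591 to 56109803 and Plin5 (ENSMUSG00000011305) at 56111601 to 56117596 are neighbours on chromosome 17. All are annotated as protein-coding, with coordinates as in the count table. Cpt1b is spanned over its whole 9459 bases by the gene Gm44502 on the same strand, which had 0 counts in all 32 libraries, so the counts of Cpt1b, 9 to 133 per library, are uncertain. Acot2 has the close paralog Acot1. Ucp3 overlaps Gm10603 on the opposite strand over 1857 bases, and Plin4 and Fabp3 overlap opposite-strand genes over 17 and at most 81 bases, and the strandedness of the counting is not given in the sources used here.

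Per kilobase of gene length, Fabp3 stood alone at the top of the 10 genes in old uninjured muscle, while Ucp3, Fabp3 and Plin4 were the most abundant in young uninjured muscle. In old uninjured muscle the levels per kilobase were 202 CPM for Fabp3, 49.5 for Cd36, 35.3 for Plin4 and 35.2 for Ucp3, with Lpl at 19.8, Plin2 at 8.35, Acot2 at 5.72, Plin5 at 3.85, Cpt1b at 1.13 and Angptl4 at 0.657. In young uninjured muscle they were 193 CPM for Ucp3, 175 for Fabp3, 109 for Plin4, 60.5 for Cd36, 47.4 for Acot2 and 17.3 for Lpl, with Plin2 at 11.3, Plin5 at 7.74, Angptl4 at 4.01 and Cpt1b at 0.746. The level and place of Cpt1b are uncertain, since Gm44502 spans it on the same strand. Over the 8 groups, Acot2 was highest in young uninjured muscle at 104 ± 34.7 CPM (SD, n = 4) and next in young muscle at day 35 at 70.3 ± 24.4 CPM, whose libraries overlapped. The other 6 groups of Acot2 lay between 7.95 and 12.6 CPM, below every library of those 2 young groups, and neighbours in their order overlapped. Plin4 had its highest mean, 665 ± 107 CPM, in young muscle at day 35 and its lowest, 16.2 ± 9.51 CPM, in old vehicle muscle at day 7.

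**Figure D1:**
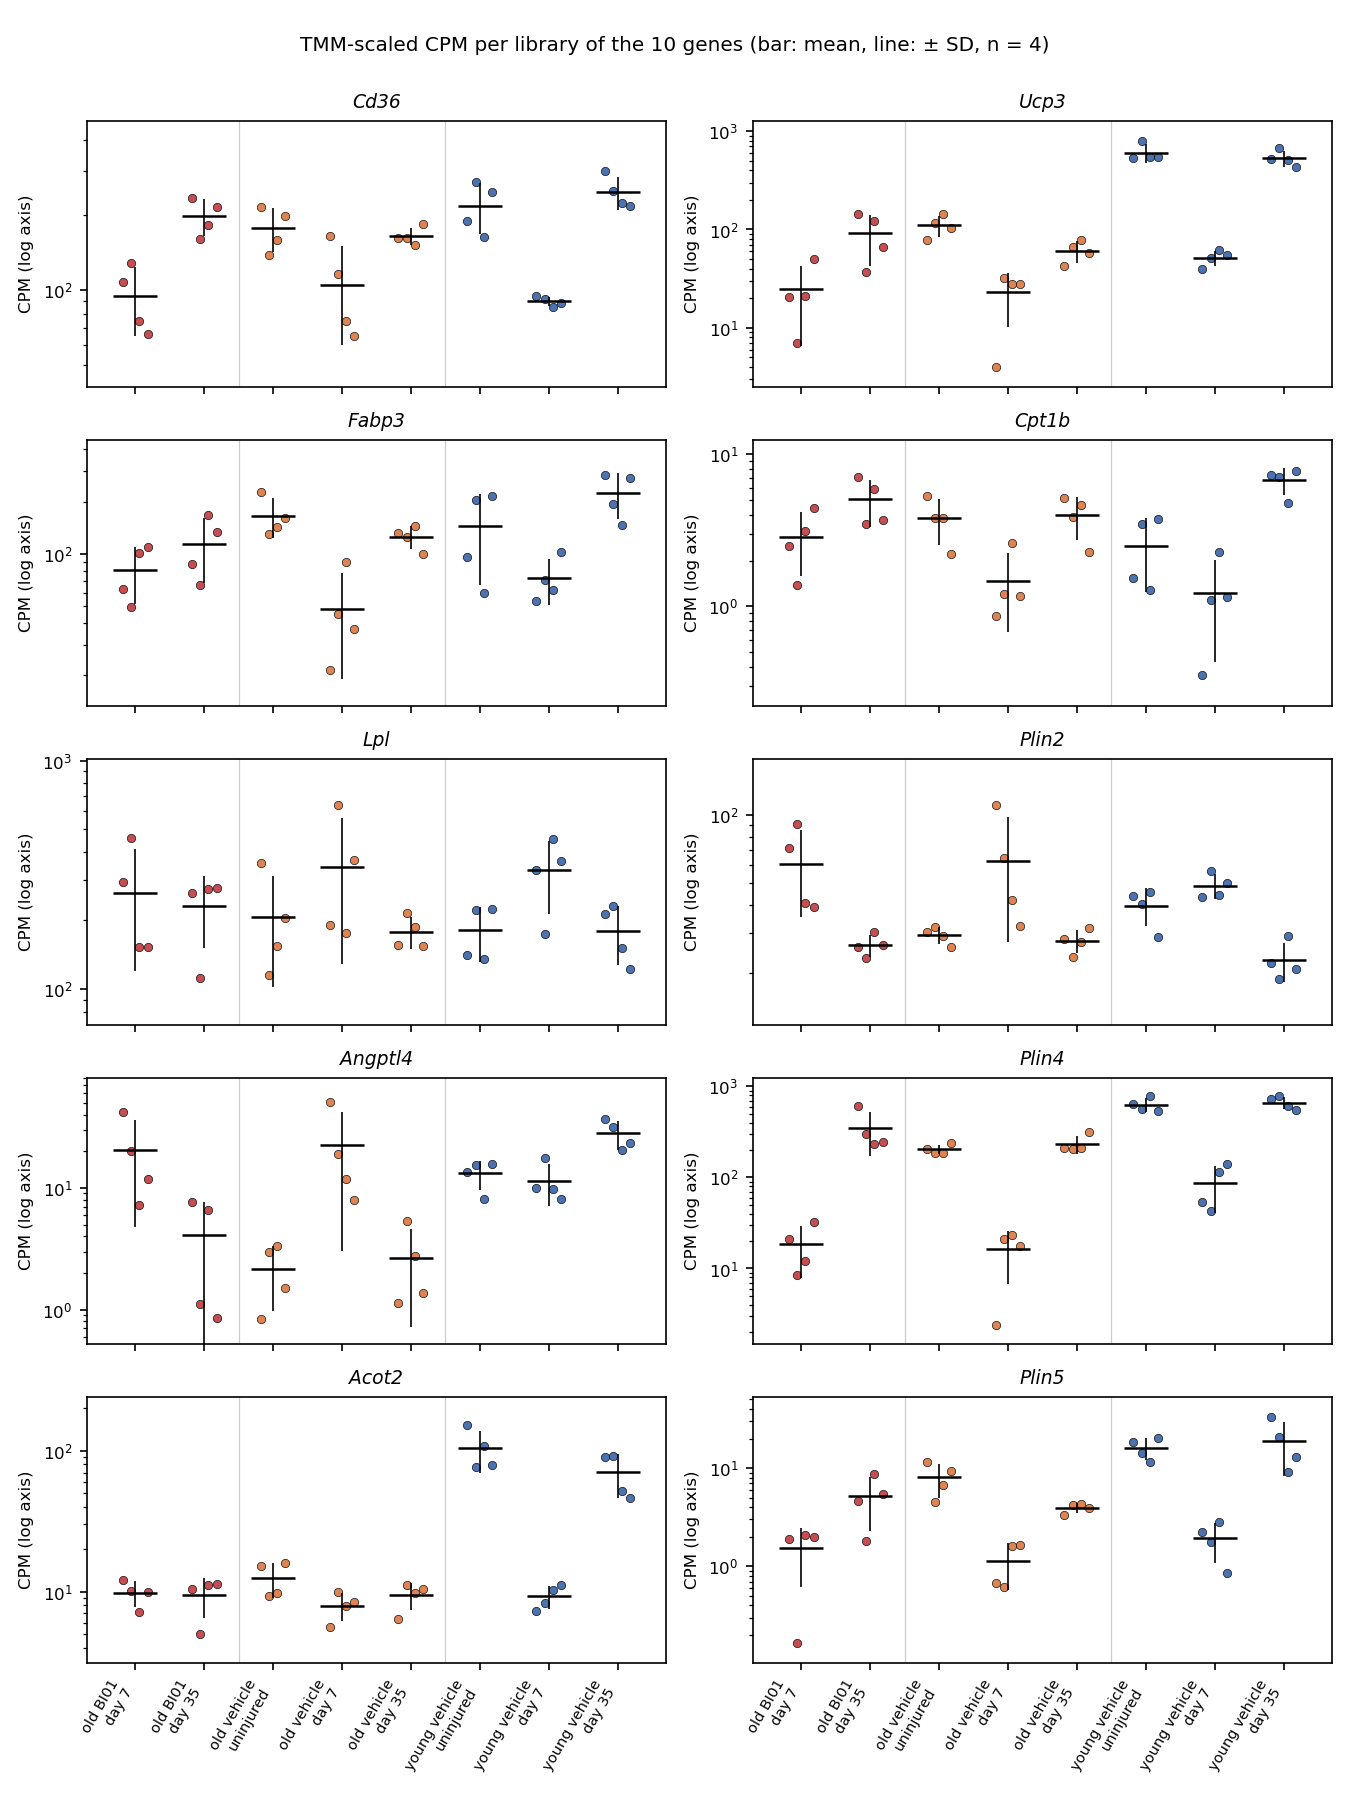
TMM-scaled CPM on a log axis for each of the 10 genes in each of the 32 libraries, by group, with the mean as a bar and the SD as a line (n = 4 per group). Acot2 sits at 46.4 CPM or above in all libraries of uninjured and day 35 young muscle and at 15.9 CPM or below in every other library.

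In old uninjured muscle the lipase inhibitor gene Angptl4 and the mitochondrial gene Ucp3 were lower than in young uninjured muscle, and the picked genes Acot2 and Plin4 were lower as well. Of the 8 genes that could be tested, 2 were called lower in old muscle, Ucp3 by 5.49-fold and Angptl4 by 6.11-fold, and 0 were called higher. A gene was called at an edgeR adjusted p under 0.05 over all 17121 genes, a threshold that 13.4% of all genes passed in this comparison, 7.65% lower and 5.79% higher. The median log2 fold change of the 8 genes was -0.36, against 0.09 over all genes tested.

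Among the uptake genes, Angptl4 had 0.839, 2.95, 3.36 and 1.49 CPM in old uninjured muscle, against 13.5, 15.5, 8.09 and 15.6 CPM in young uninjured muscle. All 4 old libraries lay below all 4 young ones, and the old mean was 6.11-fold lower. Its log2 fold change was -2.60 (SE 0.67, edgeR adjusted p = 0.0103), and with limma voom the adjusted p was 0.0560. Cd36 averaged 178 ± 35.4 CPM in old muscle and 217 ± 50.3 CPM in young muscle (SD, n = 4 each), with a 95% interval of the log2 fold change from -0.75 to 0.17. The intervals were -0.63 to 1.02 for Lpl, which averaged 208 ± 106 CPM in old muscle and 181 ± 48.9 CPM in young muscle, and -0.58 to 0.99 for Fabp3, with 166 ± 43.0 CPM in old muscle, against 144 ± 77.8 CPM in young muscle. The libraries of both ages overlapped in these 3 genes.

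Among the mitochondrial genes, Ucp3, which encodes a carrier of the inner membrane, had 78.5, 116, 144 and 103 CPM in old uninjured muscle, against 537, 802, 540 and 543 CPM in young uninjured muscle. Old muscle was 5.49-fold lower, with no overlap (log2 fold change -2.46, SE 0.48, edgeR adjusted p = 0.00122). Acot2, whose product splits fatty acyl-CoA in the mitochondrial matrix, had 15.3, 9.28, 9.76 and 15.9 CPM in old uninjured muscle, against 151, 77.0, 108 and 79.3 CPM in young uninjured muscle. The lowest young library was thus well above the highest old one, and the log2 fold change was -3.05, given as a description because the gene was picked for it. Cpt1b had 3.80 ± 1.28 CPM in old muscle and 2.52 ± 1.28 CPM in young muscle (interval -0.31 to 1.5).

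Among the perilipins, Plin4, a coat protein of muscle and fat droplets and also picked for its level, had 205, 187, 185 and 239 CPM in old uninjured muscle, against 641, 571, 775 and 531 CPM in young uninjured muscle. The log2 fold change was -1.63, with no overlap. Plin5, which ties droplets to mitochondria in oxidative tissue, had 11.5, 4.54, 6.80 and 9.27 CPM in old uninjured muscle, against 18.6, 14.1, 11.6 and 20.3 CPM in young uninjured muscle. The groups did not overlap, by a narrow margin, but the fit over all libraries gave a log2 fold change of -1.01 with an edgeR adjusted p of 0.159, and a fit of these 2 groups alone gave 0.0450. Plin2, the perilipin found in most cell types, averaged 29.3 ± 2.52 CPM in old muscle and 39.7 ± 7.60 CPM in young muscle (interval -0.98 to 0.10), and the groups overlapped. In all, 3 of the 8 tested genes did not overlap between ages, as did 19.8% of all genes.

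Marker genes of other fibre and cell types were measured in the same libraries, since these genes are not particular to fast fibres. Of 8 markers of oxidative and slow fibres, 5 were called higher in old uninjured muscle, where 5.79% of all genes were. Their summed level was 990 to 2540 CPM in old muscle and 286 to 771 CPM in young muscle. The highest old sum, 2540 CPM, was in library 6, and the next, 1251 CPM, in library 9. Old library 6 was also the highest of its group in 5 of the 10 genes, Fabp3 and Lpl among them, and the lowest in 2. The lowest young sum, 286 CPM, was in library 3, which was the lowest of its group in 6 of the 10 genes, Fabp3 among them, and the highest in 2. Of the oxidative and slow fibre markers, Myh7 and Myl2 were at 0 in all 4 young libraries. Of 9 fast fibre markers, 7 adipocyte markers and 8 endothelial markers, 0 were called in that comparison, nor of 8 macrophage and 7 progenitor markers. The fast fibre markers still summed lower in old muscle, at 223451 to 231303 CPM against 242379 to 308095 CPM in young muscle, without overlap. Of 5 satellite cell markers 1 was called higher in old muscle, and they summed to 43.0 to 74.3 CPM in old and 33.8 to 37.7 CPM in young muscle, without overlap. The adipocyte markers summed to 2.15 to 22.2 CPM in old muscle and 2.67 to 59.0 CPM in young muscle, and the endothelial markers to 242 to 302 CPM in old muscle and 266 to 301 CPM in young muscle. The part of fibre type or satellite cells in the age differences was not tested.

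**Figure D2:**
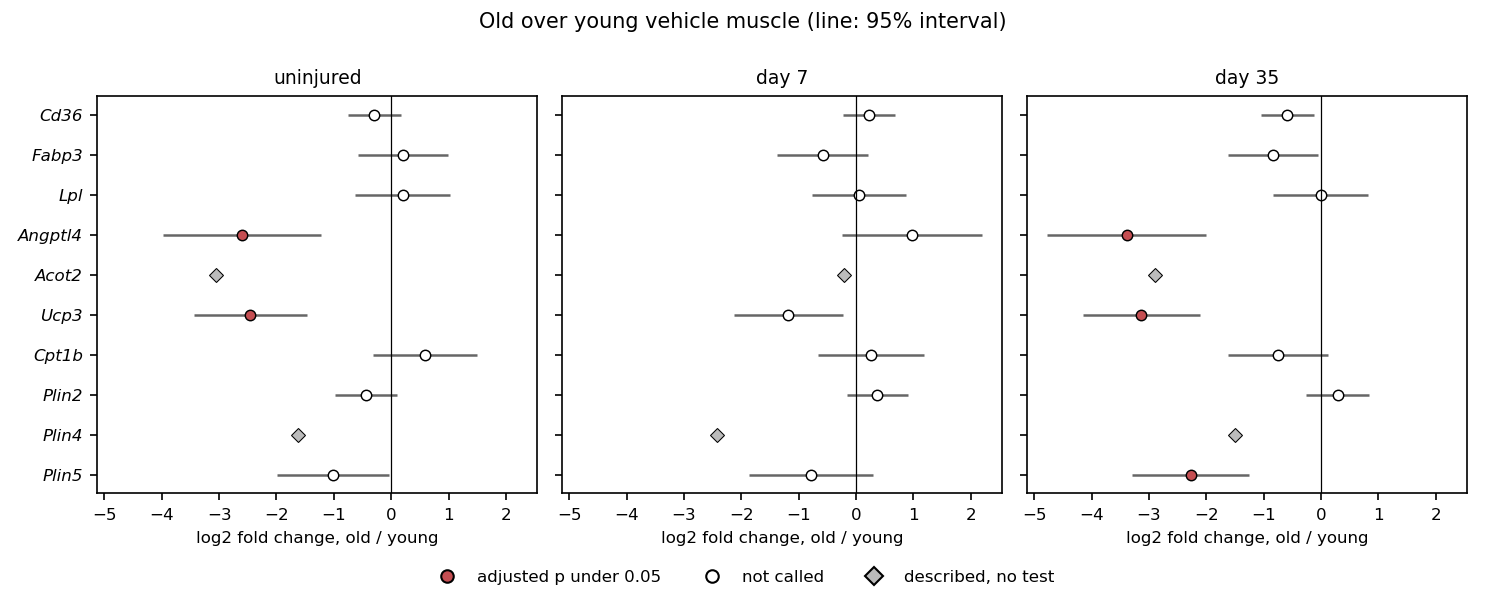
Log2 fold change of old over young vehicle muscle for the 10 genes, in uninjured muscle, at day 7 and at day 35, with 95% intervals; filled points passed an edgeR adjusted p under 0.05 and grey diamonds are Acot2 and Plin4, described with no test. Ucp3 and Angptl4 lie at -2.46 and -2.60 in uninjured muscle and at -3.13 and -3.39 at day 35.

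At day 7 after injury Acot2, Ucp3, Plin4, Plin5, Cd36 and Fabp3 fell in both ages, though Acot2 and Cd36 in old muscle turned direction with library size alone, and Angptl4 and Plin2 rose in old muscle. In old vehicle muscle 9 of the 10 genes were called against old uninjured muscle, 7 lower and 2 higher, where 64.2% of all genes were called, 29.8% lower and 34.4% higher. In young muscle 6 of the 10 were called, all lower, where 60.8% of all genes were called, 27.5% lower and 33.3% higher. Over the other settings 6 to 9 genes were called in old and 5 to 8 in young muscle, and with 1 library left out 8 to 9 and 5 to 7. The rule did not use this contrast, but the uninjured libraries of Acot2 and Plin4 entered both the rule and the contrast. Their p-values at day 7, and their part in these counts, are therefore not independent of the choice. The median log2 fold change of the 10 genes was -1.06 in old muscle and -1.15 in young muscle, against 0.14 and 0.17 over all genes.

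Plin4 had 2.39, 21.1, 23.6 and 17.7 CPM in old vehicle muscle at day 7, against 205, 187, 185 and 239 CPM in old uninjured muscle (log2 fold change -3.66, SE 0.50, edgeR adjusted p = 3.02e-07). In young muscle it had 53.1, 42.5, 114 and 139 CPM at day 7, against 641, 571, 775 and 531 CPM uninjured (-2.85, SE 0.48, edgeR adjusted p = 8.45e-06). No day 7 library reached any uninjured library of its age. Plin5 fell alike, to 1.14 ± 0.569 CPM in old muscle at day 7 (log2 fold change -2.83, edgeR adjusted p = 3.02e-05) and to 1.92 ± 0.83 CPM in young muscle at day 7 (-3.05, edgeR adjusted p = 8.67e-06), again without overlap.

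Ucp3 had 4.03, 32.4, 27.6 and 27.7 CPM in old vehicle muscle at day 7 and was lower than in old uninjured muscle (log2 fold change -2.27, SE 0.48, edgeR adjusted p = 0.000179). In young muscle at day 7 it had 40.1, 51.3, 61.2 and 54.9 CPM, a log2 fold change of -3.55 (SE 0.50, edgeR adjusted p = 8.11e-07). Acot2 had 5.64, 9.90, 7.89 and 8.37 CPM in old vehicle muscle at day 7, of which 1 lay above 2 of the 4 old uninjured libraries. That change of -0.66 (SE 0.27, edgeR adjusted p = 0.0340) was not called with DESeq2 (adjusted p 0.0677), limma voom (0.0562), without the filter (0.0640) or with DESeq2 size factors (0.0709). It was also not called without old uninjured library 6 (0.0966) or 9 (0.122) or without old day 7 library 7 (0.116) or 9 (0.0561), and with library size alone its log2 fold change was 0.33. In young muscle Acot2 had 7.31, 8.27, 10.3 and 11.1 CPM at day 7, 11.3-fold below uninjured muscle (log2 fold change -3.50, SE 0.29, edgeR adjusted p = 2.69e-11). At day 7 the young and old libraries of Acot2 overlapped, with 2 of the 4 young libraries above all old ones. Cpt1b fell in old muscle to 1.47 ± 0.788 CPM (-1.37, edgeR adjusted p = 0.00787) and missed the threshold in young muscle at 1.23 ± 0.798 CPM (-1.03, edgeR adjusted p = 0.0525). In young muscle it was called with DESeq2 (0.0374), without uninjured library 1 (0.0356) or 3 (0.0275), and without day 7 library 6 (-1.54, 0.00876). Scaled by library size alone, the fall of Cpt1b in old muscle had an adjusted p of 0.429.

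Of the uptake genes, Cd36 had 164, 116, 74.8 and 65.2 CPM in old vehicle muscle at day 7 and 178 ± 35.4 CPM in old uninjured muscle, with overlap (log2 fold change -0.76, edgeR adjusted p = 0.00438). In young muscle at day 7 it was tightly grouped at 94.2, 91.7, 85.4 and 88.3 CPM, below every uninjured library (-1.27, edgeR adjusted p = 1.74e-05). Fabp3 fell to 48.3 ± 29.3 CPM in old muscle at day 7 (-1.78, edgeR adjusted p = 0.000291) and to 72.4 ± 21.3 CPM in young muscle (-0.99, edgeR adjusted p = 0.0284). The call of Fabp3 in young muscle was lost without any 1 of 5 libraries, uninjured 2 (adjusted p 0.107) and 4 (0.124) and day 7 libraries 4 (0.0818), 5 (0.0549) and 6 (0.0678). With library size alone Cd36 was at 0.30 in old and -0.38 in young muscle, neither called, and Fabp3 was at -0.81 and -0.14, neither called. Lpl averaged 344 ± 215 CPM in old vehicle muscle and 331 ± 116 CPM in young muscle at day 7, with log2 fold changes of 0.73 (edgeR adjusted p = 0.116) and 0.87 (0.0644). With library size alone these were 1.71 and 1.73, and both were called. In young muscle Lpl was also called with DESeq2 (adjusted p 0.0398), in a fit of the 2 groups alone (0.0150) and without day 7 library 5 (0.0290), and in old muscle without uninjured library 6 (1.11, 0.0249).

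Angptl4 went the other way in old muscle. It had 50.5, 19.1, 11.8 and 7.95 CPM in old vehicle muscle at day 7, against 0.839, 2.95, 3.36 and 1.49 CPM in old uninjured muscle. Every injured library was above every uninjured one, and the log2 fold change was 3.37 (SE 0.68, edgeR adjusted p = 9.77e-05). In young muscle it had 9.92, 17.6, 9.88 and 8.07 CPM at day 7, against 13.5, 15.5, 8.09 and 15.6 CPM uninjured, and the groups overlapped (-0.21, interval -1.45 to 1.03). Plin2 had 111, 64.4, 41.9 and 32.3 CPM in old vehicle muscle at day 7, all above the 30.3, 32, 29 and 26 CPM of old uninjured muscle (1.09, SE 0.26, edgeR adjusted p = 0.00066). In young muscle it averaged 48.5 ± 6.10 CPM at day 7 and 39.7 ± 7.60 CPM uninjured (0.29, interval -0.25 to 0.82), and with library size alone it was called higher there too (1.17, adjusted p 0.00133).

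The difference between ages in the day 7 response was tested as a difference of differences. Of the 8 genes that could be tested, 1 was called, Angptl4, where 7.70% of all genes were called, 3.22% with a higher and 4.48% with a lower response in old muscle. Its response was 3.58 higher on the log2 scale in old than in young muscle (SE 0.90, edgeR adjusted p = 0.0160). Without old day 7 library 7 the difference was 2.79 with an adjusted p of 0.0520, and the rise in old muscle itself was 2.57 (adjusted p 0.00118). The differences were 0.80 for Plin2 (interval 0.05 to 1.56, edgeR adjusted p = 0.178) and 1.28 for Ucp3 (-0.06 to 2.61, 0.232). For Acot2 it was 2.84, given as a description.

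In these genes the old vehicle library 7 at day 7 had the highest Angptl4 (50.5 CPM), Plin2 (111 CPM) and Cd36 (164 CPM) of its group and the lowest Ucp3 (4.03 CPM), Plin4 (2.39 CPM), Fabp3 (21.4 CPM), Cpt1b (0.870 CPM) and Acot2 (5.64 CPM). Its macrophage markers summed to 1562 CPM, against 697 to 1218 CPM in the other 3 libraries. The other group with a library of this kind was BI01 muscle at day 7, where library 2 had the lowest fast fibre sum, 29445 CPM, the highest Plin2 (91.3 CPM), Cd36 (128 CPM) and Lpl (458 CPM), and the lowest Ucp3 (6.93 CPM), Plin4 (8.58 CPM), Plin5 (0.167 CPM) and Fabp3 (49.4 CPM). Across the groups, fast fibre markers summed to 11578 to 72467 CPM in old vehicle muscle, against 76893 to 164158 CPM in young muscle at day 7. All 8 macrophage markers were called higher at day 7 in both ages, and they summed to 697 to 1562 CPM in old vehicle muscle at day 7, against 13.0 to 111 CPM in old uninjured muscle. In young muscle they summed to 457 to 834 CPM at day 7, against 18.5 to 85.4 CPM uninjured. Of 7 markers of fibro-adipogenic progenitors, 7 were called higher at day 7 in old and 6 in young muscle, and of 5 satellite cell markers all 5 were in both. Of 9 fast fibre markers 8 were called lower at day 7 in old and 6 in young muscle, while of 8 oxidative and slow fibre markers 4 were called higher and 1 lower in old and 5 higher and 1 lower in young muscle. Of 7 adipocyte markers 2 were called higher in old and 1 in young muscle, and of 8 endothelial markers 3 were called higher and 2 lower in both. At day 7 the adipocyte markers summed to 98.3 CPM in old vehicle library 8 (1.35 to 45.1 CPM in the others) and 123 CPM in young library 6 (6.83 to 51.0 CPM in the others). Each was also the highest of its group in Lpl. BI01 library 2 at day 7, the highest of its group in Lpl, had the lowest adipocyte sum, 14.1 CPM. Of all genes, 34.4% were called higher and 29.8% lower at day 7 in old vehicle muscle, and 33.3% higher and 27.5% lower in young muscle. The part of the cell types above in the day 7 values was not tested. Without old library 7, Plin4 (-3.30), Plin5 (-2.64), Ucp3 (-1.92), Fabp3 (-1.54), Cpt1b (-1.18), Cd36 (-1.06), Plin2 (0.65) and Angptl4 (2.57) were still called in old muscle at day 7 against uninjured muscle.

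**Figure D3:**
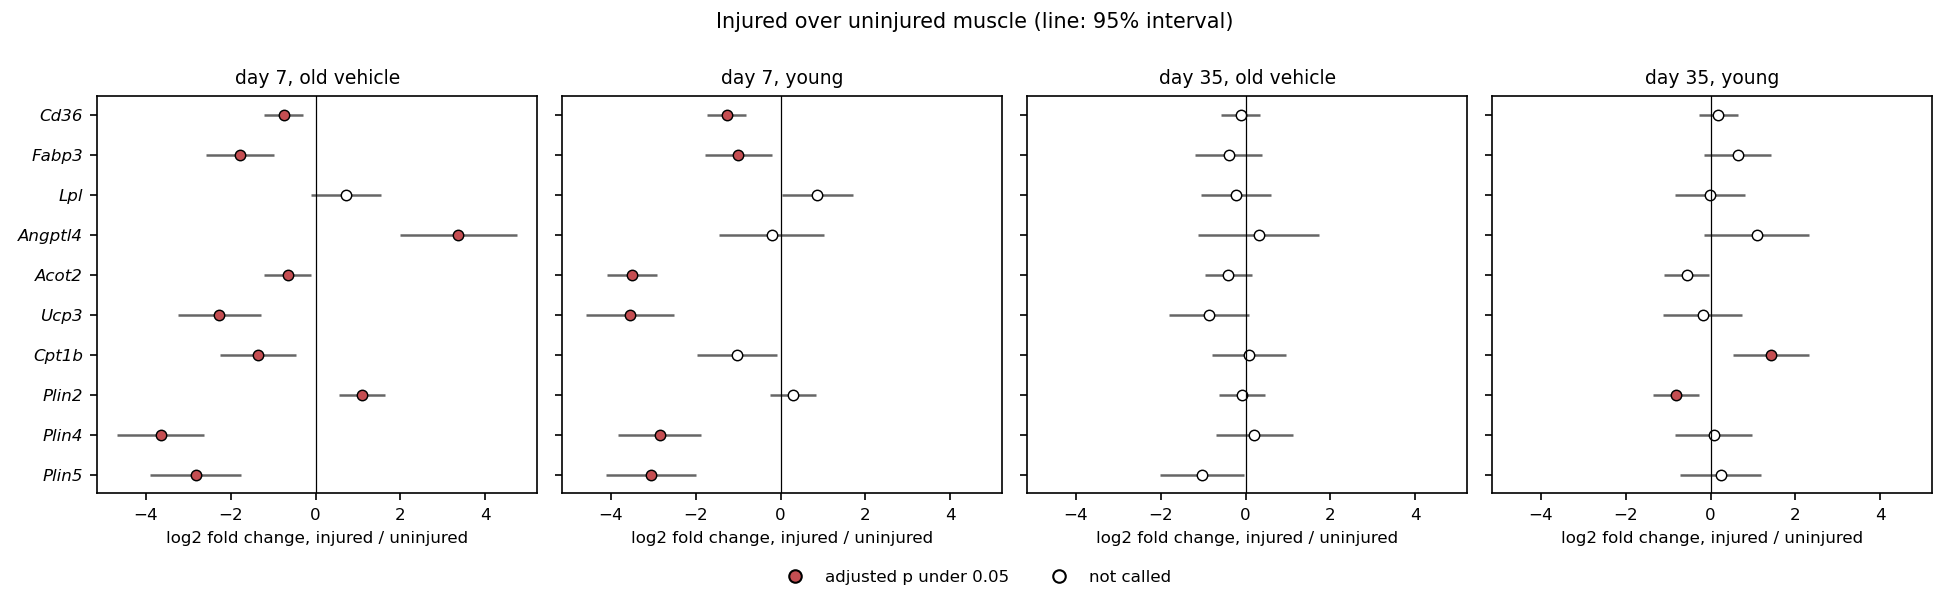
Log2 fold change of injured over uninjured muscle for the 10 genes at day 7 and day 35, in old vehicle and in young muscle, with 95% intervals; filled points passed an edgeR adjusted p under 0.05. Plin4 lies at -3.66 in old and -2.85 in young muscle at day 7, and at 0.20 and 0.08 at day 35.

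At day 7 itself, 0 of the 8 tested genes were called between old vehicle and young muscle by edgeR, where 2.43% of all genes were called, 2.18% lower, and 1 had an unadjusted p under 0.05. With DESeq2 and limma voom the count was also 0. That gene was Ucp3, whose old libraries, at 4.03 to 32.4 CPM, all lay below the young ones, at 40.1 to 61.2 CPM (log2 fold change -1.18, interval -2.14 to -0.22, edgeR adjusted p = 0.162). It was the 1 tested gene without overlap, where 6.68% of all genes had none. Plin4 was 2.39 to 23.6 CPM in old muscle and 42.5 to 139 CPM in young muscle, a described log2 fold change of -2.43, while Acot2 differed by -0.21 with overlap. Leaving out old library 7, the log2 fold changes of Plin2 and Cd36 were -0.07 each, against 0.37 and 0.22 with it, and neither was called either way.

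At day 35 few of the 10 genes differed from uninjured muscle of the same age by more than the spread between libraries. In old vehicle muscle 0 of 10 were called against uninjured muscle by edgeR, DESeq2 and limma voom, where 5.64% of all genes were called by edgeR, 2.47% lower, and 1 had an unadjusted p under 0.05. That gene was Plin5, with 3.30, 4.24, 4.29 and 3.89 CPM in old vehicle muscle at day 35, against 11.5, 4.54, 6.80 and 9.27 CPM in old uninjured muscle, without overlap (log2 fold change -1.02, interval -2.02 to -0.03, edgeR adjusted p = 0.276). Ucp3 had 42.3, 65.8, 78.1 and 57.0 CPM at day 35, against 78.5, 116, 144 and 103 CPM uninjured, with the highest injured library just below the lowest uninjured one (-0.86, interval -1.81 to 0.09, edgeR adjusted p = 0.358). Fitted on those 2 groups alone, both were called (adjusted p 0.0125 for Plin5 and 0.0418 for Ucp3). These were the 2 of 10 genes without overlap, where 19.4% of all genes had none. Plin4 was at 235 ± 52.3 CPM in old vehicle muscle at day 35 and 204 ± 25 CPM in old uninjured muscle. Markers of other cells were measured at day 35 as well. Of 7 markers of fibro-adipogenic progenitors 6 were called higher at day 35 than uninjured in old vehicle and 4 in young muscle, summing to 891 to 1148 CPM at day 35 against 178 to 483 CPM uninjured in old, and 536 to 868 CPM against 242 to 441 CPM in young muscle. Of 8 endothelial markers 2 were called higher in old vehicle and 1 in young muscle, of 8 oxidative and slow fibre markers 1 was called lower in old vehicle and 1 higher in young muscle, and of 7 adipocyte markers 1 was called higher in young muscle. Of all genes, 3.17% were called higher and 2.47% lower at day 35 in old vehicle muscle, and 7.06% higher and 8.66% lower in young muscle. The part of these other cells in the day 35 values was not tested.

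In young muscle at day 35, 2 of 10 genes were called against uninjured muscle, 1 higher and 1 lower, where 15.7% of all genes were called, 7.06% higher and 8.66% lower. Cpt1b had 7.30, 7.07, 4.76 and 7.84 CPM at day 35, against 1.55, 3.47, 1.29 and 3.76 CPM uninjured, without overlap (log2 fold change 1.43, SE 0.44, edgeR adjusted p = 0.0258). Plin2 had 22.0, 18.8, 29.2 and 20.8 CPM at day 35, against 43.8, 40.5, 45.7 and 28.8 CPM uninjured, where 1 library of each group overlapped (-0.81, SE 0.27, edgeR adjusted p = 0.0372). Neither call was stable. That of Cpt1b was lost without young uninjured library 1 (adjusted p 0.10) or 3 (0.116) or day 35 library 1 (0.0582) or 4 (0.0662). That of Plin2 was lost without uninjured library 1 (0.101), 2 (0.0572) or 3 (0.126), without day 35 library 1 (0.0879), 2 (0.103) or 4 (0.0988), and with limma voom (0.0536), no filter (0.105) or library size alone (0.169). Angptl4 had 36.8, 31.9, 20.5 and 23.3 CPM at day 35, all above the uninjured libraries, and with Cpt1b made 2 of 10 genes without overlap, where 19.8% of all genes had none (1.09, interval -0.15 to 2.33, edgeR adjusted p = 0.227). A fit of these 2 groups alone called Angptl4 (1.05, adjusted p 0.0192). Acot2, Ucp3, Plin4, Plin5, Cd36, Lpl and Fabp3 overlapped their uninjured libraries and were not called, with log2 fold changes from -0.57 for Acot2 to 0.64 for Fabp3. In the difference of the day 35 response between ages 0 of 8 genes were called, and 1 had an unadjusted p under 0.05, where 0% of all genes were called by edgeR and 1690 had an unadjusted p under 0.05. DESeq2 and limma voom also called 0 of the 8.

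Set against day 7, the values at day 35 differed in kind between genes. Time after injury and collection set cannot be told apart in this contrast. In old vehicle muscle 9 of 10 genes were called between day 35 and day 7, 6 higher and 3 lower, where 58.9% of all genes were called, 27.5% higher and 31.4% lower. In young muscle 8 were called, 7 higher and 1 lower, where 55.3% of all genes were, 26.0% higher and 29.3% lower. Plin4 was 14.5-fold higher at day 35 than at day 7 in old vehicle muscle (log2 fold change 3.86, edgeR adjusted p = 2.05e-07) and 7.63-fold higher in young muscle (2.93, edgeR adjusted p = 8.32e-06). Acot2 was 7.61-fold higher at day 35 in young muscle (2.93, edgeR adjusted p = 1.10e-09), and in old vehicle muscle it averaged 9.46 ± 2.09 CPM at day 35 and 7.95 ± 1.76 CPM at day 7 (0.25, interval -0.31 to 0.81). Under library size alone that old value was -0.69 (adjusted p 0.0223), the opposite direction. Plin4 and Acot2 were picked for lower levels in old muscle, and the day 35 libraries may have entered that choice. The contrast of their return between ages is thus a description with no test. Their p-values for day 35 against day 7, in BI01 muscle too, may not be independent of that choice. Angptl4 was lower at day 35 than at day 7 in old vehicle muscle (-3.06, edgeR adjusted p = 0.000296), by -2.27 without old day 7 library 7 and by -3.67 without old day 35 library 7. The fall of Lpl in old muscle (-0.95, edgeR adjusted p = 0.0455) rested on the day 7 library 8 at 638 CPM, without which it was -0.46 (adjusted p 0.329). Leaving out any 1 of the old vehicle libraries at day 35, or day 7 library 10, also took it over the threshold, with adjusted p-values of 0.0509 to 0.0986, as did limma voom (0.101) and no filter (0.0997). The rise of Cd36 (0.65, edgeR adjusted p = 0.0149) was not called without day 7 library 9 (0.0653) or 10 (0.0760), in a fit of the 2 groups alone (0.0624), or with library size alone, where it was -0.35. Library size alone turned the balance in old vehicle muscle, to 1 gene higher (Plin4) and 4 lower (Angptl4, Plin2, Lpl and Acot2) at day 35, with Ucp3 (adjusted p 0.297), Cpt1b (0.267), Plin5 (0.139) and Fabp3 (0.253) no longer called.

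At day 35 Ucp3 and Angptl4 were again lower in old vehicle than in young muscle, now with Plin5. Of the 8 genes that could be tested, 3 were called, Ucp3, Angptl4 and Plin5, each lower in old vehicle muscle, where 3.51% of all genes were called, 1.79% lower and 1.72% higher. Ucp3 had 42.3, 65.8, 78.1 and 57.0 CPM in old vehicle muscle at day 35, against 520, 668, 510 and 432 CPM in young muscle at day 35, an 8.76-fold difference (log2 fold change -3.13, SE 0.50, edgeR adjusted p = 0.000274). Angptl4 had 1.14, 5.34, 2.74 and 1.38 CPM in old muscle and 36.8, 31.9, 20.5 and 23.3 CPM in young muscle (-3.39, SE 0.67, edgeR adjusted p = 0.00350), and leaving out old library 7 gave -4.00. Plin5 had 3.30, 4.24, 4.29 and 3.89 CPM in old muscle and 33.4, 20.6, 9.17 and 12.9 CPM in young muscle (-2.27, SE 0.50, edgeR adjusted p = 0.00643). None of these 3 overlapped between ages.

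Cd36 and Fabp3 did not overlap either, with 152 to 183 CPM in old vehicle and 217 to 300 CPM in young muscle for Cd36 (-0.59, interval -1.05 to -0.13, edgeR adjusted p = 0.164). Fabp3 had 99.4 to 146 CPM in old muscle and 147 to 285 CPM in young muscle (-0.84, interval -1.63 to -0.05, edgeR adjusted p = 0.282). A fit of the 2 groups alone called both, with adjusted p-values of 0.00309 for Cd36 and 0.0202 for Fabp3, and 5 of the 8 genes in all. Without overlap were thus 5 of 8 genes, where 16.5% of all genes had none. Of the picked genes, Acot2 had 6.41, 11.1, 9.85 and 10.4 CPM in old muscle and 90.9, 91.7, 52.0 and 46.4 CPM in young muscle (-2.89), and Plin4 had 211, 204, 211 and 313 CPM in old muscle and 721, 783, 611 and 545 CPM in young muscle (-1.5). Of the oxidative and slow fibre markers 0 of 8 were called between ages at day 35, and they summed to 648 to 1459 CPM in old vehicle and 497 to 1360 CPM in young muscle. The fast fibre markers, with 0 of 9 called, summed to 198365 to 256290 CPM in old vehicle and 201729 to 252508 CPM in young muscle.

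BI01 was compared with vehicle in injured old muscle. At day 7 and at day 35, 0 of the 10 genes and 0% of all 17121 genes were called by edgeR, and limma voom also called 0. At an unadjusted p under 0.05 there were 1 of the 10 genes at day 7 and 0 at day 35, and 1126 and 530 of all genes. DESeq2 called 1 of all genes at day 7, and 2 higher and 10 lower at day 35, none of them among the 10. Without old vehicle library 9 at day 7, edgeR called 50 genes higher and 4 lower with BI01 at day 7, again none of the 10. No gene of the 10 had groups without overlap at either time, where 1.76% of all genes at day 7 and 3.02% at day 35 had none.

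Cpt1b was the gene with an unadjusted p under 0.05, with 2.51, 1.39, 3.15 and 4.46 CPM in BI01 muscle and 0.870, 1.21, 2.63 and 1.18 CPM in vehicle muscle at day 7 (log2 fold change 0.97, interval 0.08 to 1.86, edgeR adjusted p = 0.741). Fabp3 averaged 80.7 ± 29.2 CPM with BI01 and 48.3 ± 29.3 CPM with vehicle at day 7 (0.74, interval -0.05 to 1.53). Plin4 at day 35 had 610, 297, 236 and 246 CPM with BI01, against 211, 204, 211 and 313 CPM with vehicle, where library 6 with BI01 was above all others (0.57, interval -0.34 to 1.48). Ucp3 at day 35 had 142, 36.8, 123 and 65.8 CPM with BI01 and 42.3, 65.8, 78.1 and 57.0 CPM with vehicle (0.60, interval -0.35 to 1.54). Angptl4 at day 35 was split in the BI01 group, with 7.70 and 6.63 CPM in libraries 6 and 8 and 1.12 and 0.861 CPM in libraries 7 and 9, and 1.14 to 5.34 CPM with vehicle (0.61, interval -0.77 to 1.99). Acot2 averaged 9.45 ± 2.99 CPM with BI01 and 9.46 ± 2.09 CPM with vehicle at day 35 (0.00, interval -0.56 to 0.57). In the BI01 group at day 35, library 7 was the lowest in 8 of the 10 genes and the highest in 0. Its progenitor markers summed to 378 CPM (1045 to 1703 CPM in the other libraries) and its oxidative and slow fibre markers to 325 CPM (929 to 1861 CPM). Its fast fibre sum, 260655 CPM, was the highest of that group.

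Over the return between day 7 and day 35, 6 of the 10 genes were called in BI01 muscle, 4 higher and 2 lower at day 35, where 55.6% of all genes were called, 26.2% higher and 29.4% lower. Higher were Plin4 (4.23, edgeR adjusted p = 7.92e-08), Ucp3 (1.90), Plin5 (1.78) and Cd36 (1.07), and lower were Angptl4 (-2.32) and Plin2 (-1.20). Without BI01 day 7 library 1 the fall of Angptl4 was -1.68, and without BI01 day 7 library 4 the rise of Ucp3 was 2.50. Scaled by library size alone, Plin5 (adjusted p 0.102) and Cd36 (0.556) were no longer called and Acot2 (-0.92) and Lpl (-1.09) were called lower, which made 2 higher and 4 lower. The difference between BI01 and vehicle in this return was called for 0 of the 10 genes and 0% of all genes by edgeR, with 0 of the 10 and 825 of all genes at an unadjusted p under 0.05. DESeq2 called 1 gene higher and 1 lower, neither among the 10, and limma voom called 0.

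**Figure D4:**
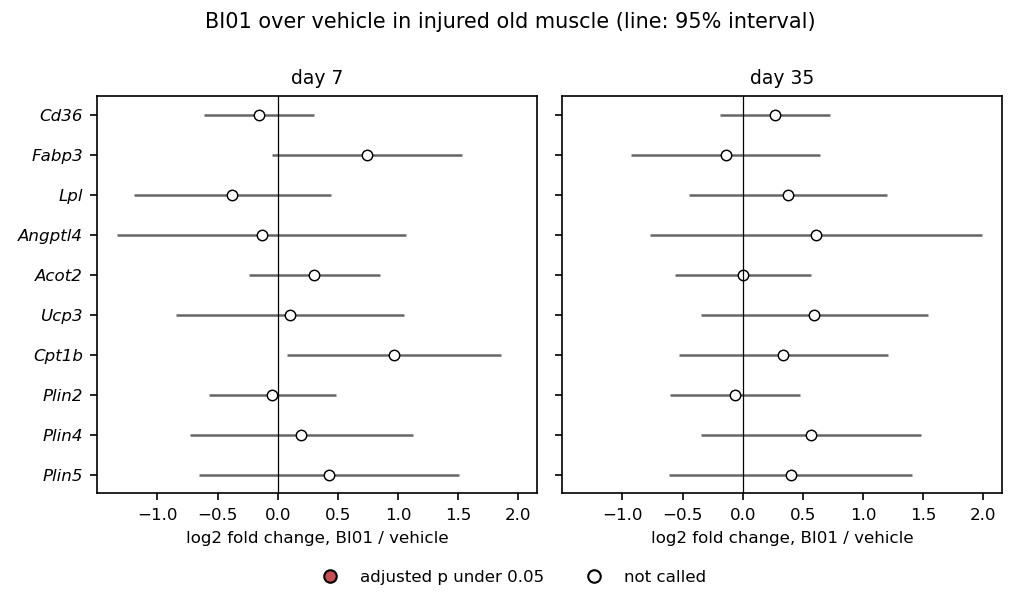
Log2 fold change of BI01 over vehicle in injured old muscle for the 10 genes at day 7 and day 35, with 95% intervals; no point passed an edgeR adjusted p under 0.05. The interval of Cpt1b at day 7, from 0.08 to 1.86, is the one that leaves out 0.

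Plin2 and Plin4 changed places at day 7 in old muscle, while in young muscle they were about level. Shares were taken of the summed level per kilobase of Plin2, Plin4 and Plin5, and other perilipins were not in this sum. Plin4 made up 74.2 ± 2.58% in old and 84.9 ± 1.96% in young uninjured muscle (SD, n = 4 each). Its share was 71.5% to 77.7% in the old libraries and 83.7% to 87.8% in the young ones. Plin2 made up 17.8 ± 2.95% in old and 8.81 ± 1.06% in young uninjured muscle, and the ages did not overlap. At day 7 Plin2 held the larger share in old vehicle muscle, 80.4 ± 12.8%, with 70.4% to 97.7% in the libraries, against 48.7 ± 14.3% and 36.7% to 66.2% in young muscle, where Plin4 had the larger share in 2 of 4 libraries. In BI01 muscle at day 7 its share was 79.5 ± 12.9%. At day 35 Plin4 again held the largest share of this sum, with 84.0 ± 6.90% in BI01, 80.3 ± 2.10% in old vehicle and 88.2 ± 2.27% in young muscle. Plin5 stayed between 3.25% and 7.98% on average in all 8 groups. These shares are descriptions with no test, and Plin4, which enters each of them, was picked for its level in old muscle.

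Other genes of the same pathways were counted from 8 lists. In the carnitine shuttle and beta oxidation list, 18 of 21 genes were called lower and 1 higher at day 7 in old vehicle muscle, and 16 lower and 1 higher in young muscle. Of all genes, 29.8% were called lower and 34.4% higher at day 7 in old vehicle muscle, and 27.5% lower and 33.3% higher in young muscle. The list's median log2 fold changes were -1.69 and -1.12, against 0.14 and 0.17 over all genes. Mlycd, whose enzyme removes the malonyl-CoA that blocks CPT1, changed by -2.25 in old and -2.32 in young muscle at day 7, and Crat, the carnitine acetyltransferase, by -2.14 and -1.63. With age in uninjured muscle 4 of the 21 were called lower and 0 higher, where 7.65% of all genes were called lower. They were Mlycd (-0.94, edgeR adjusted p = 0.00187), the liver-type transferase gene Cpt1a (-0.97), the enoyl-CoA isomerase gene Eci2 (-0.41) and Acacb (-1.14), which makes malonyl-CoA. The list's median was 0.03. At day 35 Mlycd (-1.47), Eci2 (-0.72) and Cpt1a (-1.14) were again called lower in old vehicle muscle, and no other gene of the list was. Between ages at day 35, 1.79% of all genes were called lower.

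Among genes of triglyceride turnover, 3 of 20 tested were called in old against young uninjured muscle, near the 13.4% of all genes. Of 13 genes of lipolysis and the droplet coat, 1 was called lower in old uninjured muscle, Pnpla2 (-0.85, edgeR adjusted p = 0.0366), which encodes the main triglyceride lipase, and 0 were called higher. Of 7 tested genes of triglyceride synthesis 2 were called lower in old uninjured muscle, the acyltransferase gene Gpam (-1.42, edgeR adjusted p = 0.00156) and Lpin1 (-1.11, edgeR adjusted p = 0.0122), a phosphatidate phosphatase. Fatty acid synthesis had 1 of 9 genes called higher, the desaturase gene Scd2 (1.48, edgeR adjusted p = 0.000924). Of 11 genes of uptake and activation 0 were called with age in uninjured muscle, by edgeR, and at day 35 the transporter gene Slc27a1 was called lower (-1.55) and Acsl4 higher (0.62) in old vehicle muscle.

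Of 12 PPAR receptors and partners, 4 had higher and 2 had lower calls in old uninjured muscle, where 5.79% of all genes were called higher and 7.65% lower. Ppara (1.19) and the coactivator gene Ppargc1b (1.44) were higher, and Ppard (-0.80) and the forkhead factor gene Foxo1 (-1.19) were lower, so the receptors Ppara and Ppard went in opposite directions. Among 6 tested genes of fasting and PPAR targets, Pdk4, whose kinase restrains the use of glucose, was called lower in old muscle, with 247 ± 80.6 CPM in old, against 4922 ± 1805 CPM in young uninjured muscle (-4.32, edgeR adjusted p = 0.000133). At day 35 it had 153 ± 69.6 CPM in old vehicle and 4642 ± 1726 CPM in young muscle (-4.92), and Acot1, the cytosolic paralog of Acot2, was lower too with 0.143 ± 0.143 CPM in old vehicle muscle, against 2.50 ± 1.46 CPM in young muscle (-4.11, edgeR adjusted p = 0.00227). Acot1 rested on 8 counts in the 4 old and 158 in the 4 young libraries and shares sequence with Acot2, so its value is uncertain. Of 8 other thioesterase genes tested, 2 were called higher in old uninjured muscle, Acot11 (2.03, edgeR adjusted p = 2.97e-05) and Acot8 (0.85, edgeR adjusted p = 0.0133), the opposite direction to Acot2. At day 7 fatty acid synthesis had 5 genes higher and 2 lower of 9 in old vehicle and 6 higher and 1 lower in young muscle, with Scd2 at 2.89 in old and 4.18 in young and Me1, which makes NADPH, at -3.95 in old and -3.87 in young. The receptor list had 2 higher and 8 lower of 12 in both ages at day 7, and the lipolysis and coat list 4 higher and 4 lower of 13 in old vehicle and 2 higher and 3 lower in young muscle, beside 64.2% of all genes called in old vehicle and 60.8% in young muscle. The lists were written with results of these data known, so their counts are descriptions.

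**Figure D5:**
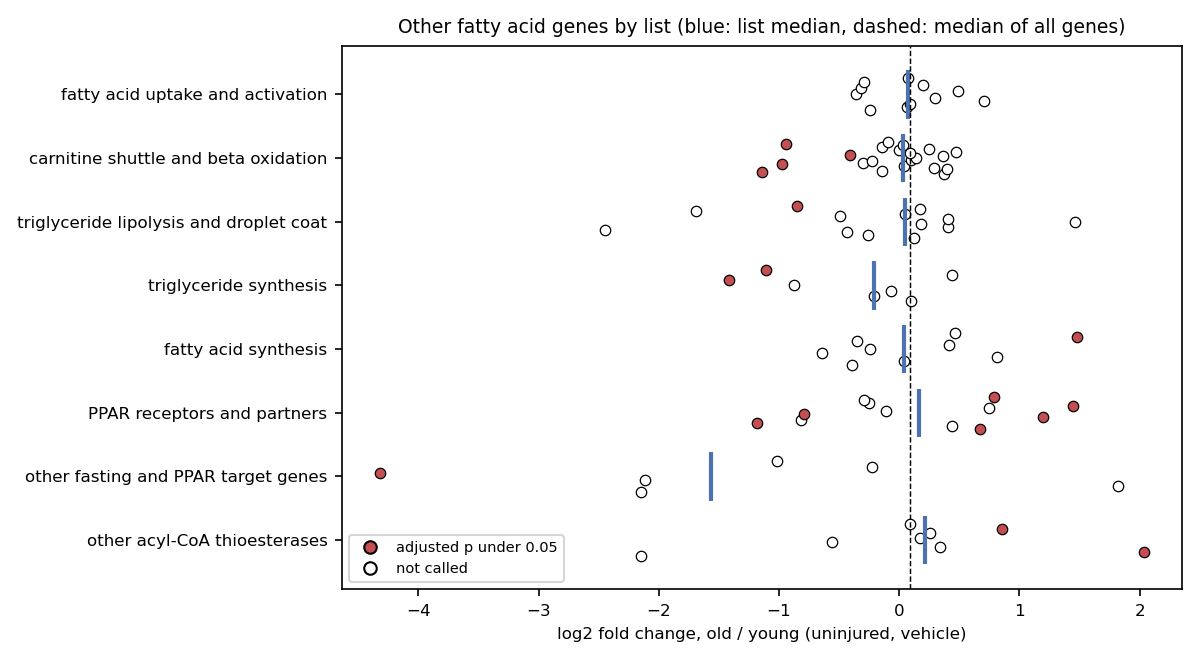
Log2 fold change of old over young uninjured vehicle muscle for each tested gene of the 8 lists, with the list's median in blue and the median of all 17121 genes, 0.09, as a dashed line; filled points passed an edgeR adjusted p under 0.05. Pdk4 lies at -4.32 and Acot11 at 2.03.

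The genes whose pattern over the 8 group means was most like that of Acot2 were Arrdc3, Cebpd, Slc25a25, Hif3a and Tacc2, with root mean square differences of 0.36, 0.41, 0.41, 0.49 and 0.50 on the centred log2 scale, among 14283 protein-coding genes. For Plin4 they were Klhl33, Mybpc2, Oacyl, Tigar and Fbp2, at 0.53, 0.54, 0.55, 0.58 and 0.58. Of the other 9 genes, Ucp3 was most like Acot2 (0.78) and also most like Plin4 (0.89). Ucp3 and Plin5 were closest to each other (0.52). These measures describe 8 group means that share their libraries' scaling.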

How the data were processed

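Gene expression was measured by bulk RNA sequencing in 32 libraries, and the deposited table holds whole-number read counts per gene, not normalised by the authors. HISAT2 and the build mm10 are named, per the submitters' processing notes, and for the counter, the annotation and the strandedness the sources used here give nothing. Columns were matched to groups by age, treatment and day in their names, and the main fit assumed no pairing from a shared library number.

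Counts were tested with edgeR 4.0.16 in R 4.3.3 (filterByExpr, TMM, robust quasi-likelihood fit with 1 mean per group over all 32 libraries), with Benjamini-Hochberg adjustment over 17121 genes. CPM and log2 fold changes were computed from that fit. DESeq2 1.42.0, limma 3.58.1 (voom), other scalings, other filters, fits of the compared groups alone and each library left out were the alternatives. The edgeR step was tested on simulated data. Total counts of 14129350 to 30439358 set the counting precision, and intervals cover the spread between libraries.

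The 10 genes and all gene lists were chosen with earlier results of these data known. In each list up to 4 genes with the smallest p in a comparison were named, and for likeness the 5 protein-coding genes with the smallest root mean square difference of group-mean log2 CPM (prior count 2). Promoter windows are from RefSeq for GRCm38.p6.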

Additional observations from a re-analysis of the deposited data

Results flagged for a closer look

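In 7 of 80 sets of 4 libraries (10 genes in 8 groups), 1 library stood apart from the other 3 by Dixon's criterion at the 95% level, and chance marks about 1 in 20 such sets. With BI01 at day 35, library 7 was low for Acot2 at 5.0 CPM (10.4 to 11.3 CPM in the other 3) and for Lpl at 112 CPM (263 to 278 CPM), and library 6 was high for Plin4 at 610 CPM (236 to 297 CPM). With BI01 at day 7, library 2 was low for Plin5 at 0.167 CPM (1.91 to 2.07 CPM). In old vehicle muscle, library 7 at day 7 was low for Ucp3 at 4.03 CPM (27.6 to 32.4 CPM) and library 9 at day 35 was high for Plin4 at 313 CPM (204 to 211 CPM). In young uninjured muscle, library 2 was high for Ucp3 at 802 CPM (537 to 543 CPM).

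The day 7 response of Angptl4 differed between ages, with a difference of log2 fold changes, old minus young, of 3.58 (edgeR adjusted p = 0.0160), and of 2.79 without old vehicle library 7 at day 7 (adjusted p = 0.0520). Its level at day 7 itself was not called between ages (0.98, edgeR adjusted p = 0.386).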

How the results depend on the processing

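Direction and call held in 944 of 1024 values with 1 library left out and in 822 of 888 under the other settings. Values that were not called as reported and stayed so count as held, among them all of BI01 against vehicle. Acot2 and Plin4 between ages have no call, and held if the sign stayed and the value moved by less than its SE. Of the differences of responses, only Angptl4, Plin2, Ucp3 and Acot2 at day 7 were included. The counts of genes called were within 1.5 times of those reported, with these exceptions, whose cause was not tested. In old against young uninjured muscle limma voom called 1 gene, and at day 35 a fit of those 2 groups alone called 5. In young muscle at day 35 against uninjured muscle 1 was called with library size alone, with no filter and with limma voom, and 0 to 2 with 1 library left out. In old vehicle muscle at day 35 against uninjured muscle a fit of those groups alone called 2, and against day 7 library size alone called 5. In the difference between ages of the day 7 response, 0 to 1 were called with 1 library left out.

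A replicate block on the library numbers shared by uninjured and day 35 libraries, chosen after seeing the data and fitted on those groups alone, called 2 genes in old vehicle muscle (Ucp3, adjusted p 4.70e-05, and Plin5, 0.0297) and 3 in young muscle (with Angptl4, 0.00754). Same-numbered libraries correlated at 0.0089 to 0.109 in old and -0.032 to 0.161 in young muscle in their deviations from the group means. Libraries 8 and 9 in old and 1, 3 and 4 in young muscle correlated best with their own number, and the others did not. Whether libraries of the same number are paired is thus not known.

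The sign turned in these values, none of them called as reported except where named. With library size alone, Acot2 in old against young muscle at day 7 was 0.11, Lpl in old against young muscle at day 35 0.030, Angptl4 in young muscle at day 7 against uninjured 0.70, and Acot2 and Cd36, both called as reported, in old muscle at day 7 against uninjured 0.33 and 0.30. In young muscle at day 35 against uninjured Ucp3 was 0.031 and Lpl 0.21. For day 35 against day 7, Acot2 was -0.69 and Cd36, called as reported, -0.35 in old vehicle muscle, and Cpt1b was -0.026 and Fabp3 -0.34 with BI01. With limma voom Lpl was -0.068 in old against young muscle at day 7 and 0.032 at day 35, and with BI01 against vehicle Plin2 was 0.026 and Plin5 -0.037 at day 7 and Acot2 -0.024 at day 35. Lpl in old against young muscle at day 35 was 0.0093 with DESeq2 size factors and 0.0095 with DESeq2, Lpl in young muscle at day 35 against uninjured was 0.0022 with no filter, and Acot2 with BI01 against vehicle at day 35 was -0.00037 with DESeq2.

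With 1 library left out, values that were not called ranged over 0. In old against young uninjured muscle Fabp3 ranged from -0.048 to 0.47 and Lpl from -0.19 to 0.40. At day 7 Cpt1b ranged from -0.18 to 0.76, Lpl from -0.43 to 0.27, Plin2 from -0.068 to 0.59 and Cd36 from -0.075 to 0.40, and at day 35 Lpl from -0.15 to 0.14. In young muscle at day 35 against uninjured Lpl ranged from -0.16 to 0.13, Plin5 from -0.18 to 0.47 and Plin4 from -0.0064 to 0.20, and in old muscle Lpl from -0.42 to 0.17, Cpt1b from -0.11 to 0.28 and Angptl4 from -0.31 to 0.56. With BI01, day 35 against day 7, Acot2 ranged from -0.18 to 0.16 and Lpl from -0.38 to 0.20. For BI01 against vehicle at day 7 Ucp3 ranged from -0.50 to 0.42, Angptl4 from -0.78 to 0.66, Plin2 from -0.31 to 0.39, Plin4 from -0.22 to 0.44, Cd36 from -0.34 to 0.15 and Lpl from -0.78 to 0.11, and at day 35 Acot2 from -0.14 to 0.21, Plin2 from -0.13 to 0.0050 and Fabp3 from -0.39 to 0.050. Cpt1b, at 9 to 133 counts per library, and Plin5, at 6 to 518, had the fewest counts of the 10 genes.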
